A study of Homo sapiens with 6 samples.

Results

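Serine can be taken up or made from the glycolytic intermediate 3-phosphoglycerate, and its side chain carbon feeds folate-bound units into the synthesis of purines, thymidylate and methionine. The 9 genes described here encode the enzymes of serine synthesis (PHGDH, PSAT1 and PSPH) and of the folate pathway that moves this carbon in the cytosol (SHMT1 and MTHFD1) and in the mitochondrion (SHMT2, MTHFD2, MTHFD1L and ALDH1L2). They were chosen by name, as the rows whose NCBI Gene ID maps to these symbols, and all 9 were found among the 18597 genes in the files. In many cell types the mitochondrial branch exports its carbon to the cytosol as formate, and the transcription factor ATF4 induces several of these genes when amino acids run short. Tumours are known to differ in whether they make their own serine.

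All 6 samples were AGS cells, a long-established line from a human gastric adenocarcinoma. Cells in plates received either a control siRNA (siControl) or an siRNA against DUB1 (siDUB1), with 3 libraries per group, and an siRNA is a double-stranded RNA that directs the cell to cut matching transcripts. No untransfected cells and no second duplex were among the samples, so a response to the duplex and an effect of less DUB1 cannot be told apart. Nothing says whether the replicates were separate cultures, and p-values therefore measure the spread between these samples only, which may be technical. Values are FPKM, the fragments mapped to a gene scaled by transcript length and by the size of the library, and can be compared between genes because they are per length. Read depth is unknown, since the files hold no counts. In a bulk sample, fewer cells that express a gene and less of its RNA per cell cannot be told apart.

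The transcript of USP36, of which DUB1 is a synonym in the RefSeq gene table, fell from 7.72 ± 1.28 FPKM under siControl to 3.82 ± 1.11 FPKM under siDUB1 (SD, n = 3 each, limma adjusted p = 0.0432, but up to 0.179 with a library left out). The library of siDUB1 replicate 3 stood apart. Its correlation with the other siDUB1 libraries across genes was 0.979 and 0.977, against 0.998 to 0.999 for the other pairs within a group, and its median was 1.75 FPKM against 2.91 to 3.07. All 6 gastric epithelial markers were present in every library, summing to 7311 to 7772 FPKM in siControl and 6148 to 8773 FPKM in siDUB1. Of other cell types, 3 of 5 leukocyte, 5 of 6 fibroblast and 4 of 4 endothelial markers stayed under 1 FPKM in every library. The exceptions were LYZ and CD68, which rose, so that the leukocyte list summed to 194 FPKM in siControl and to 382 to 650 FPKM in siDUB1, and COL1A1, which fell, taking the fibroblast list from 18.9 to 19.7 FPKM in siControl to 8.43 to 11.2 FPKM in siDUB1. The other 3 leukocyte markers, PTPRC (leukocytes in general), CD3E (T cells) and CD14 (monocytes), stayed at or under 0.37, 0.08 and 0.16 FPKM. The part of these markers in the results that follow was not tested.

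Promoters show what the members share in sequence. RefSeq windows from 250 bases before to 50 bases after a start site (build GRCh38.p14) were at hand for 6 of the 9 members, and 4 are printed here. A gene can have windows at alternative start sites. They show PHGDH, whose transcript was nearly absent, PSAT1, the next enzyme of serine synthesis, SHMT1, whose transcript rose, and MTHFD1L. Among the 6 members with a window, MTHFD1L alone had a match to the ATF4 element. PSPH, SHMT2 and ALDH1L2 had no window to search. The 4 printed windows follow in the order PHGDH, PSAT1, SHMT1 and MTHFD1L. Those windows lie at chr1:119711684-119711983 (plus strand), chr9:78296875-78297174 (plus strand), chr17:18363501-18363800 (minus strand) and chr6:150866236-150866535 (plus strand). The MTHFD1L window, like the other windows of that gene, lies inside the gene, which begins at chr6:150865702. Its ATF4 element match is thus downstream of that gene start. Capitals mark CCAAT, the core of the NF-Y site, on either strand (CCAAT or ATTGG) and, in MTHFD1L, the ATF4 and C/EBP composite element TGATGNAA.
PHGDH: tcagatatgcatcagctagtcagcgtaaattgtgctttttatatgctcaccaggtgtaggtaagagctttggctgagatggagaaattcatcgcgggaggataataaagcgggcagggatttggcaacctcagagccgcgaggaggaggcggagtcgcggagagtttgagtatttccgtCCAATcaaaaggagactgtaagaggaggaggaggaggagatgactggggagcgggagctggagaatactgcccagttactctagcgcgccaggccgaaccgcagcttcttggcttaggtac
PSAT1: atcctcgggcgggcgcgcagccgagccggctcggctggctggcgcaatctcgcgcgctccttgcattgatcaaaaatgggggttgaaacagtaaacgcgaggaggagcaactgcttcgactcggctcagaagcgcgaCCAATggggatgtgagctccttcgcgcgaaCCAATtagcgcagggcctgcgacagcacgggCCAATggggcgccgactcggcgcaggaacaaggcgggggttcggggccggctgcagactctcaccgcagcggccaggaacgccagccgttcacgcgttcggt
SHMT1: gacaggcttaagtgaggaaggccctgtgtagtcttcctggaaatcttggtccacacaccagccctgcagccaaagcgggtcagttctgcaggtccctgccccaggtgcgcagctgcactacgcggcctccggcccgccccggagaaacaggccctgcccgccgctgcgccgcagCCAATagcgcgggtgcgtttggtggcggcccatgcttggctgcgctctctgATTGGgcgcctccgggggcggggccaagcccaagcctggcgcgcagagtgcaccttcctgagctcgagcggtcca
MTHFD1L: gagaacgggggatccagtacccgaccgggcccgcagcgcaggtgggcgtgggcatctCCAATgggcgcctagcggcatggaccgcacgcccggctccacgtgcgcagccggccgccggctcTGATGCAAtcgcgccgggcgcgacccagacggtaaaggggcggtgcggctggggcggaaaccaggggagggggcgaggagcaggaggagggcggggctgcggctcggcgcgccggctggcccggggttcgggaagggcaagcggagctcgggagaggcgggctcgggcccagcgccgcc
Each of the 6 members with a window, which also include MTHFD1 and MTHFD2, held CCAAT in at least 1 window, as did 34.6% of the 35116 RefSeq promoter windows. PSAT1 held 3 copies, and PHGDH held 1 at 71 bases before its start. TGATGNAA, searched with its reverse TTNCATCA, occurred in 3 of the 4 alternative windows of MTHFD1L and in 3.62% of all windows. Those 3 windows overlap and hold the same site, and the share is per window, not per gene. CACGTG, the E-box that MYC can bind, was found in MTHFD1 and MTHFD1L and in 7.26% of all windows. In these windows the matches to different motifs did not overlap each other. A match is a description of letters in a window, not a shown binding site.

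In siControl cells the members spanned a wide range of levels. SHMT2 and MTHFD1 were the most abundant, at 78.0 ± 0.321 and 76.7 ± 1.92 FPKM (SD, n = 3), and their ranges overlapped. MTHFD2 followed at 59.5 ± 3.45 FPKM, PSAT1 at 42.1 ± 1.44 FPKM, MTHFD1L at 32.1 ± 1.19 FPKM, SHMT1 at 17.6 ± 1.10 FPKM and PSPH at 14.6 ± 0.557 FPKM, with no overlap between neighbours. PHGDH and ALDH1L2, at 0.127 ± 0.042 and 0.057 ± 0.025 FPKM, were near the resolution of the files, and their ranges touched. Of all genes in the files, 93.8% lay at or below SHMT2 in the control mean and 28.9% at or below PHGDH.

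**Figure D1:**
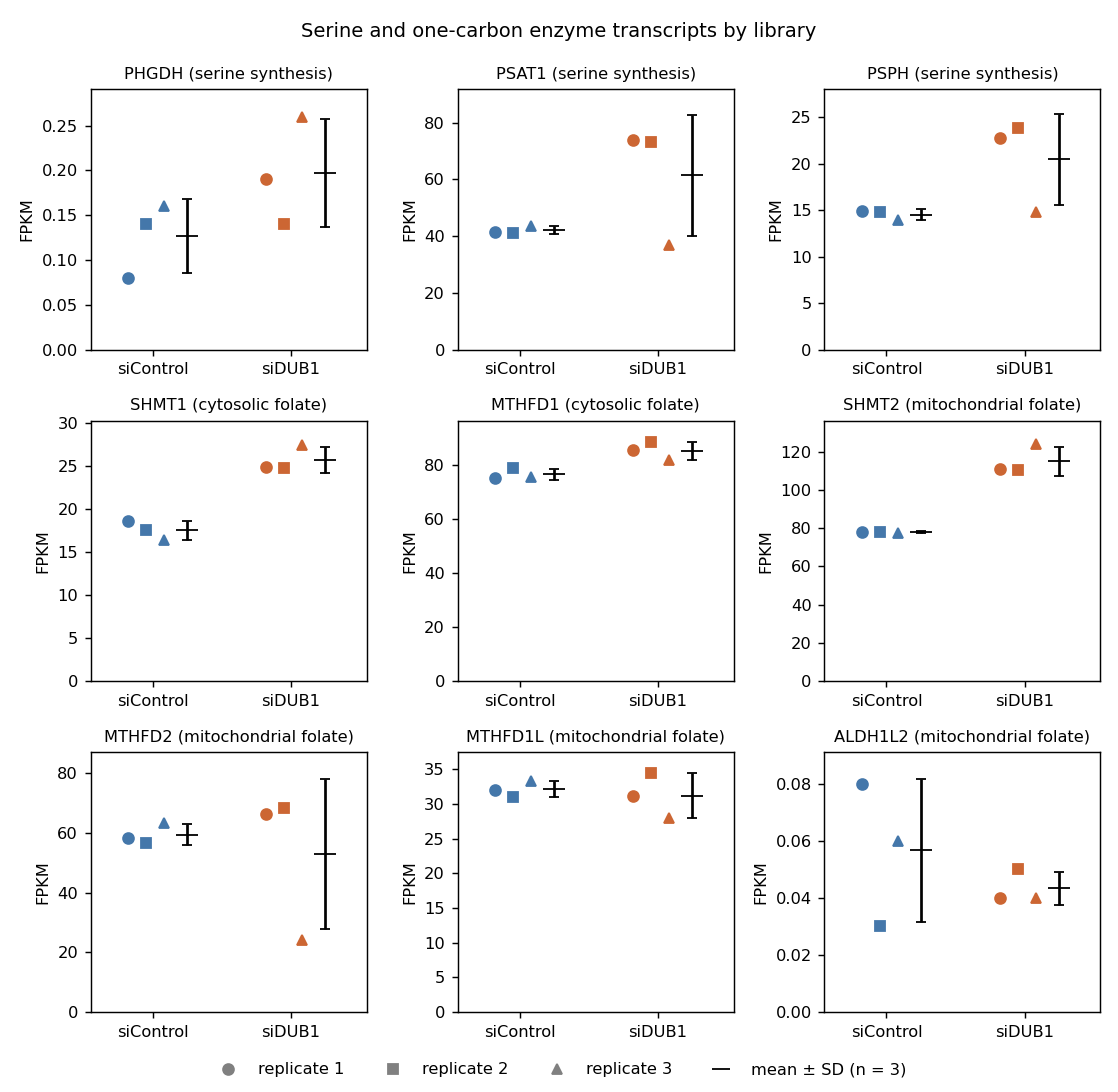
FPKM (linear axes from 0) of each of the 9 enzymes in the 3 siControl and 3 siDUB1 libraries, with symbols for replicate numbers and bars for the mean ± SD. SHMT1, SHMT2 and MTHFD1 are higher in every siDUB1 library, while in siDUB1 replicate 3 alone PSAT1 and MTHFD2 lie below the controls and PSPH lies within their range, and PHGDH and ALDH1L2 stay under 0.3 FPKM.

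With all 6 libraries as deposited the change with siDUB1 was clearest in the serine hydroxymethyltransferases, though their calls were lost with any control library left out. SHMT2 and SHMT1, which take the carbon from serine in the mitochondrion and in the cytosol, rose to 1.48 and 1.47 times their control means. MTHFD1, MTHFD2 and MTHFD1L, which act on the folate-bound carbon afterwards, did not pass the test with all 6 libraries. PSAT1 and PSPH were higher in siDUB1 replicates 1 and 2 but not in replicate 3, and they did not pass either. Without siDUB1 replicate 3 their log2 changes, 0.80 and 0.64, exceeded those of SHMT2 (0.50) and SHMT1 (0.48). Of the 9 members 7 could be tested, each of them above 1 FPKM in all 6 libraries, and 2 rose, none fell and 5 did not pass (limma on log2(FPKM + 1), Benjamini-Hochberg over all 10994 genes tested, threshold 0.05). Over all genes tested 14.1% were called, 8.13% higher and 5.92% lower, so that 57.9% of the calls were higher, against 47.6% with size factors. The median log2 change was 0.44 over the 7 members and -0.06 over all genes tested.

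SHMT2 (NCBI Gene 6472, chr12:57229711-57234935) makes glycine and methylenetetrahydrofolate from serine in the mitochondrion. Gene positions here and in what follows are those of RefSeq on GRCh38.p14. The 3 siControl libraries read 78.25, 78.12 and 77.64 FPKM, and the siDUB1 libraries, also in the order of their replicate numbers, read 110.96, 110.61 and 124.03 FPKM. The groups did not overlap, and every siDUB1 library exceeded the highest control by more than the controls differed among themselves. SHMT2 changed by 0.55 on the log2 scale (SE 0.08, limma adjusted p = 0.0113). With a control library omitted the size held at 0.55 to 0.56 but the call was lost, at adjusted p = 0.0752, 0.0786 and 0.0835 for omission of replicate 1, 2 and 3. Omission of a siDUB1 library kept it, at adjusted p = 0.0458, 0.0349 and 2.01e-06. SHMT2 overlaps NDUFA4L2 on the opposite strand, a gene not analysed here, and whether counting used strand is unknown.

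SHMT1 (NCBI Gene 6470, chr17:18327873-18363550), the cytosolic counterpart whose promoter is printed above, stood at 18.63, 17.62 and 16.43 FPKM in siControl and at 24.89, 24.77 and 27.52 FPKM in siDUB1. Again each siDUB1 library lay above each control. SHMT1 changed by 0.53 on the log2 scale (SE 0.10, limma adjusted p = 0.0224). Omission of any library but siDUB1 replicate 3 ended this call, at adjusted p = 0.0924, 0.116 and 0.129 for the 3 controls in order and 0.0688 and 0.0536 for siDUB1 replicates 1 and 2. The change was between 0.48 and 0.57 in all 6 fits with a library left out. SHMT1 overlaps SMCR8 on the opposite strand, and SMCR8 had a mean of 4.45 ± 0.353 FPKM under siControl and 3.41 ± 1.57 FPKM under siDUB1, below SHMT1 in every library.

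Between the compartments the ratio of SHMT2 to SHMT1 was 4.20, 4.43 and 4.73 in siControl and 4.46, 4.47 and 4.51 in siDUB1, on the scale of FPKM within a library. The siDUB1 ratios lay inside the control range. Their mean differed by 0.01 on the log2 scale, with an SD of 0.09 among controls (exact permutation test, two-sided, p = 0.7, where 3 against 3 cannot give less than 0.1). At this spread a difference in the ratio was not detectable. Because both genes are read in the same library, the ratio does not depend on how libraries are scaled.

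MTHFD1 (NCBI Gene 4522, chr14:64388353-64460025) is the cytosolic enzyme that joins formate to tetrahydrofolate and interconverts the folate-bound forms. Its values were 75.44, 78.87 and 75.65 FPKM in siControl and 85.54, 88.70 and 81.96 FPKM in siDUB1. The groups did not overlap, but as deposited the difference was small, a log2 change of 0.15 (SE 0.08, limma adjusted p = 0.203). Its size depended on the processing. MTHFD1 changed by 0.42 with a correction for GC content and length (adjusted p = 0.0745) and by 0.04 with quantile normalization (adjusted p = 0.714). Together with SHMT1 and SHMT2 it was 1 of 3 members among the 7 whose siDUB1 libraries all exceeded the controls, and 24.8% of all genes tested did so, while 28.5% were lower without overlap, 53.3% in either direction. MTHFD1 overlaps ZBTB25 on the opposite strand, which ranged from 3.77 to 4.78 FPKM in siControl and in siDUB1 had a mean of 5.57 ± 0.736 FPKM.

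MTHFD2 (NCBI Gene 10797, chr2:74198615-74217565) is the mitochondrial dehydrogenase and cyclohydrolase of the pathway, known for its high level in embryonic and tumour cells. It read 58.34, 56.76 and 63.36 FPKM in siControl and 66.51, 68.45 and 24.08 FPKM in siDUB1. Replicates 1 and 2 of siDUB1 lay above the controls and replicate 3 far below them. For MTHFD2 the fitted log2 change was -0.30 (SE 0.39, limma adjusted p = 0.592), and 0.18 without siDUB1 replicate 3 (adjusted p = 0.0147). Its direction therefore turned on 1 library. MTHFD2 has 7 named pseudogenes in GENCODE, none of them with a row in the files, and how reads were split between copies is not known. PSAT1 has 4 such pseudogenes, and PSPH, SHMT1 and MTHFD1 have 1 each.

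MTHFD1L (NCBI Gene 25902, chr6:150865702-151101887), which releases formate from folate in the mitochondrion, was 32.05, 30.97 and 33.34 FPKM in siControl and 31.16, 34.40 and 27.91 FPKM in siDUB1. The groups overlapped. Its log2 change was -0.05 (SE 0.10, limma adjusted p = 0.764), and the sign changed to 0.02 with size factors and to 0.07 with a correction for GC content and length. MTHFD1L was the one tested member that did not pass in any of the fits.

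ALDH1L2 (NCBI Gene 160428, chr12:105019790-105084458) burns the folate-bound carbon to CO2 in the mitochondrion, with a gain of NADPH. It was 0.08, 0.03 and 0.06 FPKM in siControl and 0.04, 0.05 and 0.04 FPKM in siDUB1. Its cytosolic counterpart ALDH1L1 was as low, with means of 0.130 ± 0.078 and 0.097 ± 0.035 FPKM. Neither reached the 1 FPKM needed for the test. The log2 ratio of ALDH1L2 to ALDH1L1 differed by -0.07 between the groups (exact permutation p = 0.9), against an SD of 0.59 among controls.

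The first step of the mitochondrial branch was set against the next ones in pairs chosen after the values were seen. SHMT2 over MTHFD1L was 2.44, 2.52 and 2.33 in siControl and 3.56, 3.22 and 4.44 in siDUB1, a log2 difference of 0.61. SHMT1 over MTHFD1, the same comparison in the cytosol, was 0.247, 0.223 and 0.217 in siControl and 0.291, 0.279 and 0.336 in siDUB1, a log2 difference of 0.40. In both pairs the groups did not overlap, as was so for 53.3% of all genes tested taken singly. Both contrasts were smaller after the correction for GC content and length. SHMT1 and MTHFD1 then changed by 0.52 and 0.42 on the log2 scale, against 0.53 and 0.15 as deposited. SHMT2 and MTHFD1L changed by 0.44 and 0.07, against 0.55 and -0.05. SHMT2 over MTHFD2 was 1.34, 1.38 and 1.23 in siControl and 1.67, 1.62 and 5.15 in siDUB1, and its log2 difference of 0.87 was 0.32 without siDUB1 replicate 3. Each of these 3 pairs reached the smallest p that 3 against 3 allows (exact permutation p = 0.1, adjusted p = 0.175 over 7 pairs), which is not below 0.05. Because the pairs were picked on these same values, their separation and p carry no weight as a test.

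Of the mitochondrial enzymes over the cytosolic one, MTHFD1L over MTHFD1 was 0.425, 0.393 and 0.441 in siControl and 0.364, 0.388 and 0.341 in siDUB1, a log2 difference of -0.20 (exact permutation p = 0.1, adjusted p = 0.175). The siDUB1 ratios were all lower. MTHFD2 over MTHFD1 was 0.773, 0.720 and 0.838 in siControl and 0.778, 0.772 and 0.294 in siDUB1, so that only replicate 3 left the control range (log2 difference -0.47, exact permutation p = 0.5). Summed over the 6 folate enzymes, the mitochondrial share of FPKM was 63.2% to 65.4% in siControl and 65.4%, 65.3% and 61.7% in siDUB1 replicates 1, 2 and 3.

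**Figure D2:**
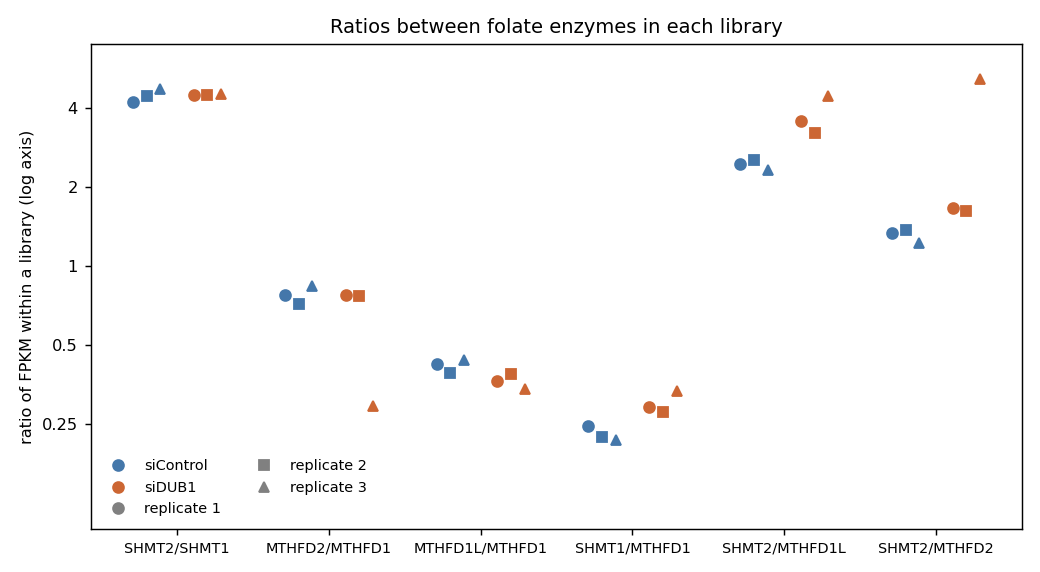
Ratio of the FPKM of 2 folate enzymes within each library (log axis), blue for siControl and orange for siDUB1, with symbols for replicate numbers. SHMT2/SHMT1 stays between 4.20 and 4.73 in all 6 libraries, SHMT2/MTHFD1L and SHMT1/MTHFD1 are higher in every siDUB1 library, and siDUB1 replicate 3 stands apart in both pairs with MTHFD2.

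Serine synthesis begins with PHGDH (NCBI Gene 26227, chr1:119711934-119744215), which oxidises 3-phosphoglycerate. PHGDH was 0.08, 0.14 and 0.16 FPKM in siControl and 0.19, 0.14 and 0.26 FPKM in siDUB1. The groups overlapped, and the gene fell under the low-value filter. Tested without that filter its log2 change was 0.09 (limma adjusted p = 0.294). In the same libraries the next enzyme, PSAT1, was 142 to 524 times as abundant per length.

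PSAT1 (NCBI Gene 29968, chr9:78297125-78330093) passes an amino group from glutamate to the product of PHGDH. It was 41.50, 40.99 and 43.70 FPKM in siControl and 74.02, 73.37 and 36.93 FPKM in siDUB1. Replicates 1 and 2 of siDUB1 were well above the controls, and replicate 3 was below all of them. For PSAT1 the fitted log2 change was 0.47 (SE 0.27, limma adjusted p = 0.253), and 0.80 without siDUB1 replicate 3 (adjusted p = 9.31e-08).

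PSPH (NCBI Gene 5723, chr7:56011064-56051444), the phosphatase that releases serine, was 14.92, 14.82 and 13.91 FPKM in siControl and 22.75, 23.83 and 14.87 FPKM in siDUB1. As for PSAT1, replicates 1 and 2 of siDUB1 were high, while replicate 3 lay within the control range. For PSPH the fitted log2 change was 0.44 (SE 0.19, limma adjusted p = 0.154). It passed with size factors (0.51, adjusted p = 0.0484), with quantile normalization (0.52, adjusted p = 0.0304) and without siDUB1 replicate 3 (0.64, adjusted p = 2.48e-06).

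Across the members the low values of siDUB1 replicate 3 went with the GC content of the transcript. The tested genes were split by GC content into 10 bins of equal size. The median log2 level of that library minus the mean of siDUB1 replicates 1 and 2 went from -0.89 in the lowest bin to 0.40 in the highest. MTHFD2, with 41.4% GC, differed by -1.45 where its bin had a median of -0.80. PSAT1, with 44.1% GC, differed by -0.98 against -0.70, and PSPH, with 49.8% GC, by -0.61 against -0.39. MTHFD1 at 48.1% differed by -0.09 against -0.39, and MTHFD1L and SHMT1 at 51.6% and 51.9% by -0.22 and 0.14 against -0.18. SHMT2, the most GC-rich of the 7 at 56.6%, differed by 0.16, as did the median of its bin. MTHFD2, PSAT1 and PSPH were thus further down than genes of like GC, and SHMT1 and MTHFD1 higher. How far GC content sets these values was not tested beyond the corrected fit.

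**Figure D3:**
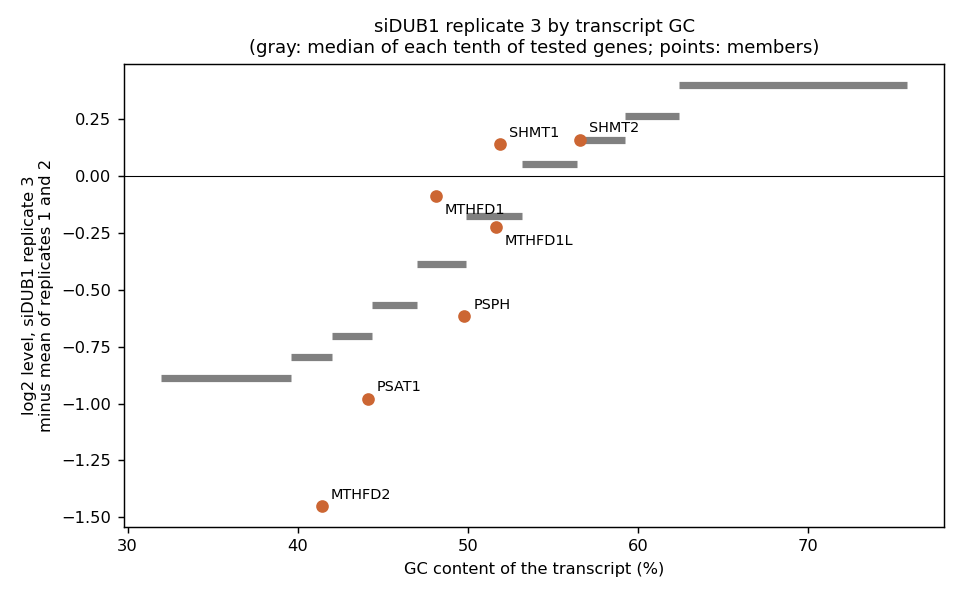
Difference in log2(FPKM + 1) between siDUB1 replicate 3 and the mean of siDUB1 replicates 1 and 2, against transcript GC content in percent. Gray bars are medians of the 10 bins of tested genes and points the 7 tested members. The bars climb from -0.89 to 0.40, with MTHFD2 at -1.45 below them and SHMT2 at 0.16 on them.

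With each library corrected for GC content and transcript length, 4 of the 7 members rose, namely PSAT1 (log2 change 0.64, adjusted p = 0.00738), PSPH (0.50, adjusted p = 0.00948), SHMT1 (0.52, adjusted p = 0.0107) and SHMT2 (0.44, adjusted p = 0.00157). MTHFD1 changed by 0.42 in that fit but did not pass (limma adjusted p = 0.0745). The fit called 34.6% of all genes, 18.5% higher and 16.1% lower. With siDUB1 replicate 3 left out instead, 6 of the 7 rose and MTHFD1L did not pass, at a log2 change of 0.03 (adjusted p = 0.711). There 57.3% of all genes were called, 31.7% higher and 25.6% lower. MTHFD1 and MTHFD2 had the smallest changes among the 6, both 0.18 with adjusted p of 0.00639 and 0.0147, while PSAT1 and PSPH had the largest. The median over the 7 members was 0.48 in that fit and 0.02 over all genes. With both steps the same 6 passed and 59.8% of all genes were called, 31% higher and 28.8% lower.

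**Figure D4:**
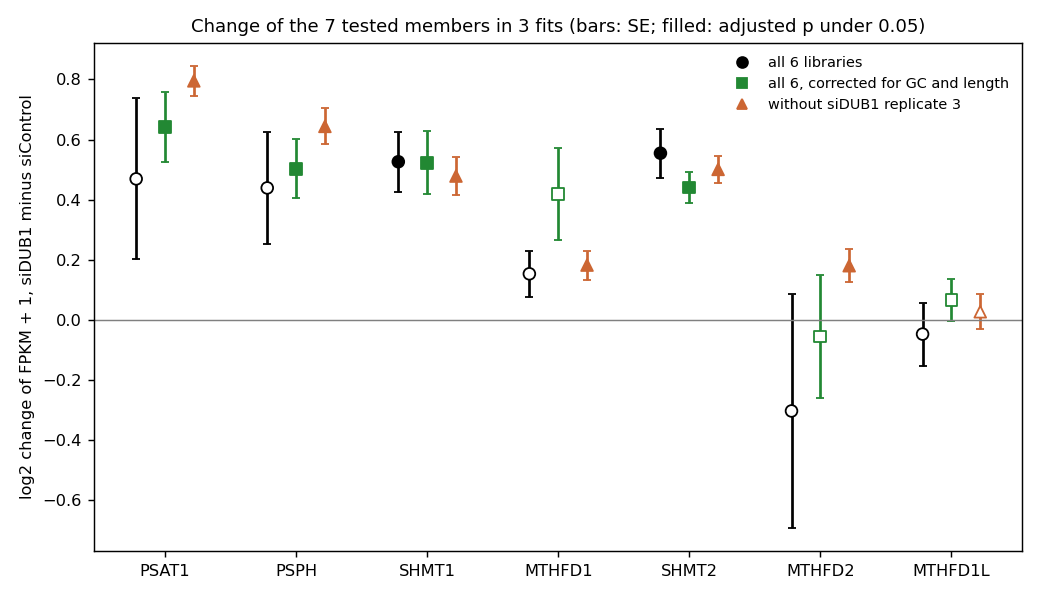
log2 change of FPKM + 1 (siDUB1 minus siControl) of the 7 tested members with its standard error, with all 6 libraries (black), after correction for GC content and length (green) and without siDUB1 replicate 3 (orange). Filled symbols have an adjusted p under 0.05. SHMT1 and SHMT2 pass in all 3 fits, PSAT1 and PSPH in the last 2, and MTHFD1L in none.

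Genes around these enzymes were read from lists of the same pathway. With all 6 libraries as deposited, 14.1% of all genes tested were called, 8.13% higher and 5.92% lower. Serine and glycine carriers held 9 tested genes of 10, of which 2 rose, none fell and 7 did not pass (median log2 change -0.23). Without siDUB1 replicate 3 they counted 2 higher and 3 lower (median 0.02), in a fit that called 57.3% of all genes tested. SLC6A9, the glycine transporter GLYT1, was 5.17, 5.75 and 4.90 FPKM in siControl and 11.30, 11.21 and 12.35 FPKM in siDUB1 (log2 change 1.01, limma adjusted p = 0.00628), with no overlap. The neutral amino acid carrier SLC1A5 rose from 200 ± 7.82 to 285 ± 37.5 FPKM (log2 change 0.51, adjusted p = 0.0333, but 0.0936 with size factors). SFXN1, which brings serine into mitochondria, did not pass (log2 change -0.43, adjusted p = 0.197). Without siControl replicate 1 or 3 SLC6A9 had adjusted p of 0.0578 and 0.0596, and SLC1A5 lost its call without any library but siDUB1 replicate 3, with adjusted p from 0.0575 to 0.154.

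Among 14 other folate genes 11 were tested (1 lower, 0 higher, 10 not past the threshold, median -0.18). The folate importer SLC46A1 fell from 23.0 ± 0.587 to 15.2 ± 0.491 FPKM (log2 change -0.57, limma adjusted p = 0.0141). Omission of a control library raised its adjusted p to between 0.0924 and 0.0937, and omission of siDUB1 replicate 1 to 0.0545. MTHFD2L, a mitochondrial paralogue of MTHFD2, averaged 3.16 ± 0.626 and 5.23 ± 0.810 FPKM and did not pass (log2 change 0.59, adjusted p = 0.0666). It passed with size factors (0.64, adjusted p = 0.0356), with quantile normalization (0.77, adjusted p = 0.0158), with the correction for GC content and length (0.98, adjusted p = 0.00744) and without siDUB1 replicate 3 (0.69, adjusted p = 2.32e-04). Of the 11 genes, 1 was higher and 4 lower with size factors, 2 and 4 with quantile normalization, 2 and 5 with the correction, and 3 and 6 without siDUB1 replicate 3. Over all genes tested 34.6% were called with the correction and 57.3% without siDUB1 replicate 3, against 14.1% with all 6 libraries as deposited. Size factors called 1390 of 10994 and quantile normalization 2554.

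Calls in purine synthesis, the methionine cycle, transsulfuration and glutathione synthesis, and glycine cleavage depended on the fit. On log2(FPKM + 1) as deposited, with all 6 libraries, none of 12 purine synthesis genes passed (median -0.03), and IMPDH2 and ATIC, which act late in the pathway, came nearest with log2 changes of 0.43 and 0.27 (limma adjusted p = 0.0513 and 0.0753). None of 8 tested genes of the methionine cycle, of 11 listed, passed (median -0.19), with MAT2A, which makes the methyl donor S-adenosylmethionine, at -0.51 (adjusted p = 0.0829) and MTRR at -0.80 (adjusted p = 0.156). In transsulfuration and glutathione synthesis none of 5 passed (median -0.10), CTH standing at 0.74 (adjusted p = 0.128) and GSS at 0.27 (adjusted p = 0.15). The glycine cleavage system had 2 tested genes of 4, DLD at -0.76 (adjusted p = 0.119) and GCSH at -0.15 (adjusted p = 0.525). Quantile normalization called 2 purine genes higher and 2 lower, 1 methionine cycle gene lower, 1 gene of transsulfuration and glutathione synthesis higher and 1 of glycine cleavage lower. The correction for GC content and length called 3 purine genes higher and 2 lower, 2 of the methionine cycle in each direction, 1 of transsulfuration and glutathione synthesis higher and 1 of glycine cleavage lower. Without siDUB1 replicate 3, 4 purine genes were higher and 4 lower, 3 genes of the methionine cycle were higher and 2 lower, 2 genes of transsulfuration and glutathione synthesis were higher and 1 lower, and 1 of glycine cleavage was lower. Over all genes tested, quantile normalization called 2554 of 10994, the correction 34.6% and the omission 57.3%. These counts are therefore not read as results about the pathways.

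In lower glycolysis, from which serine synthesis branches, 1 of 6 tested genes of 7 rose and none fell (median 0.11). With quantile normalization none was higher and 2 were lower (median -0.19). With the correction for GC content and length but without siDUB1 replicate 3, 1 was higher and 2 lower (median -0.08). Over all genes tested, quantile normalization called 2554 of 10994 and that last fit 59.8%. The gene called higher with all 6 libraries, PGK1, which makes 3-phosphoglycerate, rose from 98.1 ± 1.96 to 130 ± 14.2 FPKM (log2 change 0.40, limma adjusted p = 0.0491), at the edge of the threshold. PGK1 passed besides with size factors, the correction for GC content and length and without siDUB1 replicate 3 (with or without that correction), and in none of the other fits, where its adjusted p ran from 0.0504 to 0.182. Among 10 regulators and enzymes that handle glutamate nitrogen, 1 rose and none fell (median -0.28). Without siDUB1 replicate 3, 2 were higher and 4 lower (median -0.06), where 57.3% of all genes tested were called. GPT2, the mitochondrial alanine transaminase, rose from 16.0 ± 1.12 to 26.7 ± 4.86 FPKM (log2 change 0.69, adjusted p = 0.0338). Its adjusted p ran from 0.0789 to 0.141 with any library but siDUB1 replicate 3 left out. MYC, which can drive several of the 9 enzymes, did not pass (log2 change -0.18, adjusted p = 0.554).

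The last list held ATF4 and genes of the amino acid response. Of 9 tested genes of 13, 4 rose, 2 fell and 3 did not pass (median 0.38). Without siDUB1 replicate 3, 5 were higher and 3 lower, and without any 1 control 3 were higher and none lower. The former fit called 57.3% of all genes tested, and those without a control library called 125 to 147 of 10994. ASNS, the asparagine synthetase, was 18.69, 18.90 and 19.02 FPKM in siControl and 61.93, 64.85 and 61.36 FPKM in siDUB1 (log2 change 1.68, limma adjusted p = 8.51e-04). PCK2 rose from 10.5 ± 0.428 to 43.9 ± 4.45 FPKM (log2 change 1.96, adjusted p = 0.00159) and CHAC1, which degrades glutathione, from 16.8 ± 0.447 to 64.1 ± 14.1 FPKM (log2 change 1.85, adjusted p = 0.00252). These 3 genes also passed with each library left out in turn. ATF4 itself rose from 285 ± 12.8 to 377 ± 29.2 FPKM (log2 change 0.40, adjusted p = 0.0378, but 0.112 with size factors, 0.0546 without the low-value filter and 0.0525 without the mean-variance trend).

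The stress genes ATF3 and SESN2 of the same list fell, by 0.87 and 0.42 on the log2 scale (limma adjusted p = 0.0317 and 0.031). SESN2 did not pass with size factors (adjusted p = 0.0691). Leaving out a control library gave ATF4, ATF3 and SESN2 adjusted p from 0.128 to 0.165. Leaving out siDUB1 replicate 1 or 2 gave 0.0929 and 0.0641 for ATF4, 0.0597 and 0.0463 for ATF3 and 0.0785 and 0.0671 for SESN2. TRIB3, NUPR1, VLDLR and STC2, the members of that list not tested, were too low.

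**Figure D5:**
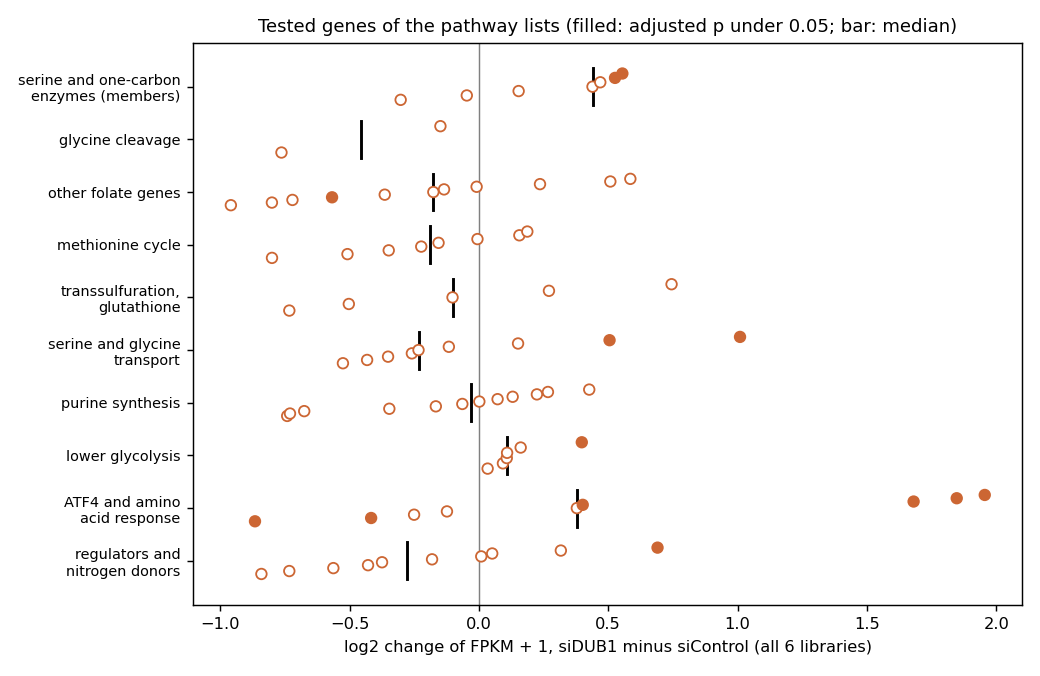
log2 change of FPKM + 1 (siDUB1 minus siControl, all 6 libraries) of each tested gene in the enzyme set and 9 pathway lists; filled points have an adjusted p under 0.05 and black bars are medians. ASNS, CHAC1 and PCK2 form the group from 1.68 to 1.96 in the ATF4 list, and the median of the enzymes is 0.44.

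Among 8007 tested genes outside the set with a mean of at least 5 FPKM, those whose log2 levels followed SHMT2 most closely over the 6 libraries were SWI5 (Pearson r = 0.9994), YARS1 (r = 0.9994) and DCAF11 (r = 0.9993). YARS1, the cytosolic tyrosyl-tRNA synthetase, was 69.92, 70.69 and 68.92 FPKM in siControl and 100.66, 101.05 and 115.31 FPKM in siDUB1. With 2 groups and 6 points, any gene that differs between the groups in the same way, with a like value in siDUB1 replicate 3, gives such an r. The same search for PHGDH gave FAM118B (r = 0.9803), RPS13 (r = 0.9786) and ATP5MG (r = 0.9767). These are not read further, as PHGDH ranged only from 0.08 to 0.26 FPKM with values rounded to 2 decimals.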

How the data were processed

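RNA from 6 AGS samples was extracted with Trizol and sequenced on a BGISEQ-500, per the labels' protocols. The authors deposited 1 table per library with a value in FPKM per NCBI Gene ID, per the file headers, rounded to 2 decimals. Per the submitters' processing notes, reads were placed on GRCh38. Aligner, counter, annotation and strand use: not given in the sources used here. Each sample was grouped by the transfection in its title. IDs were matched to the RefSeq gene table, which named 18437 of 18597.

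A gene was tested at 1 FPKM or more in at least 3 of 6 libraries, which left 10994. Groups were compared on log2(FPKM + 1), which understates changes of low genes, with limma 3.58.1 in R 4.3.3 (eBayes with trend, two-sided, no covariate) and Benjamini-Hochberg over all genes tested. An exact permutation test of 3 against 3 cannot go below p = 0.1. The fit was tested on simulated data with no outlying library, no GC shift and changes larger than those of the members. That does not show how it handles siDUB1 replicate 3. GC content and length of a gene were taken as medians over its basic protein-coding transcripts of GENCODE 29, known for 99.2% of tested genes, and were corrected by natural splines with 4 degrees of freedom.

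The members and lists were chosen with earlier results of these data known. Besides the 9 members, at most 2 called genes per list and direction were named, by smallest adjusted p, or the 2 nearest to a call where none passed. USP36, ATF4, MYC, ALDH1L1, MTHFD2L and the genes most like SHMT2 and PHGDH were named whatever their values. SFXN1, CHAC1, the markers and the genes overlapping a member were added after their values were seen. Alternatives were size factors, quantile normalization, other filters and pseudocounts, eBayes without trend or robust, the GC and length correction, the replicate block and leaving out each library. The correction without siDUB1 replicate 3 was added after seeing the data. No sample fell outside the groups.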

Additional observations from a re-analysis of the deposited data

How the results depend on the processing

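Over all genes tested 894 were higher and 651 lower, or 57.9% higher among calls, and with size factors the split was 661 and 729 (47.6% higher). Higher and lower counts were 1364 and 1190 with quantile normalization and 2019 and 1755 with the GC and length correction. Leaving out 1 library gave 54 to 3481 higher and 71 to 2818 lower, the lowest without siControl replicate 1 and the highest without siDUB1 replicate 3, and 3382 and 3140 when the correction and that omission were combined. Fits without a library have fewer residual degrees of freedom. Of the enzymes 2 were called higher, 4 with the correction, 0 to 6 with 1 library left out and 6 with both, and 3 with size factors or quantile normalization. None was called lower in any fit. Whether the replicate numbers pair the samples is not known. Same-numbered libraries deviated from their group means with r = 0.254, -0.491 and -0.227. Deviations from a mean of 3 are tied to each other, and replicate 3 dominated those of siDUB1, so these r cannot decide it. With the replicate number as a block 81 genes were higher and 98 lower and 0 of the enzymes passed, with adjusted p of 0.08 for SHMT2 and 0.114 for SHMT1.

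With 1 library left out the log2 change ran from -0.55 to 0.18 for MTHFD2, from -0.119 to 0.0274 for MTHFD1L, from -0.311 to 0.0724 for MYC and from -0.252 to 0.0334 for GCSH, each positive only without siDUB1 replicate 3. MTHFD2 was 0.20 with that omission and the correction. MTHFD1L was 0.0225 with size factors, 0.0665 with the correction and 0.025 with both, and GCSH was 0.18 with the correction and 0.10 with both. The group difference in the log2 ratio SHMT2/SHMT1 was -0.083 with the correction and ran from -0.032 to 0.053 with 1 library left out, and that in the log2 ratio ALDH1L2/ALDH1L1 was 0.0233 with a pseudocount of 1 and ran from -0.34 to 0.24. The log2 ratio MTHFD2/MTHFD1 differed by -0.70 to -0.0014 and the log2 ratio MTHFD1L/MTHFD1 by -0.25 to -0.16, both with 1 library left out. With the correction MTHFD1L and MTHFD1 changed by 0.0665 and 0.42, further apart than as deposited (-0.05 and 0.15). The causes were not tested. The median of the enzymes was 0.15 without the low-value filter, which adds PHGDH and ALDH1L2. USP36 lost its call with any library but siDUB1 replicate 3 left out (adjusted p from 0.0509 to 0.179), with the block (0.0985), without the filter (0.0676) and with pseudocounts of 0.1 and 0.01 (0.0516 and 0.0526). Depth is unknown, and for PHGDH and ALDH1L2 the 2 decimals of the files limit the precision.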
